A study of Homo sapiens with 10 samples.

Results

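LBX1, its head-to-head antisense transcript LBX1-AS1 and the nearby gene KAZALD1 lie in a row on the long arm of chromosome 10. They are 3 of the 63140 gene identifiers in the count table, found by matching Ensembl identifiers to gene symbols. They had been chosen by their lower counts under WA-68 in earlier work on these same 10 libraries, so their levels against DMSO are given here as a description, and no evidence is drawn from their calls. HS-SY-II is an established synovial sarcoma cell line, and WA-68 is a PROTAC, a small molecule that brings a ubiquitin ligase to the chromatin protein BRD9 and so has it degraded. Total RNA was poly(A)-selected and sequenced from cells given DMSO vehicle or 100 nM WA-68 for 12, 24, 48 or 96 h, with 2 biological replicates in each of the 5 groups. When the DMSO cells were harvested is not stated in the labels, so hours in culture and hours of drug cannot be told apart. All groups share the same line, and no other synovial sarcoma line or inactive compound enters here.

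LBX1 encodes a ladybird-type homeodomain transcription factor. In mouse embryos it is needed by the muscle precursors that migrate from the somites into the limb, and it sets the identity of inhibitory neurons in the dorsal spinal cord. LBX1-AS1 is a long non-coding RNA read from the opposite strand. KAZALD1 encodes a secreted protein with an insulin-like growth factor (IGF) binding domain, a Kazal domain and an immunoglobulin domain, and is known from bone formation. BRD9 belongs to the non-canonical BAF complex, a chromatin remodeller on which synovial sarcoma cells with an SS18-SSX fusion depend for growth.

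In GENCODE v29 on GRCh38, LBX1 (ENSG00000138136) spans chr10:101226195-101229794 on the minus strand and LBX1-AS1 (ENSG00000227128) spans chr10:101229594-101270148 on the plus strand. The exons of this pair overlap by 201 bases at their starts. The library kit is strand-specific per the labels, but the strand setting of the counting is not given in the sources used here, and without it the reads in that overlap cannot be told apart. KAZALD1 (ENSG00000107821) spans chr10:101061841-101068131 on the plus strand, 158.1 kb from LBX1. TLX1, TLX1NB, LINC01514 and SMARCE1P7 lie in that gap. TLX1, a homeobox gene, had 4 reads over all 10 libraries, TLX1NB had 1, and LINC01514 and SMARCE1P7 had 0, so the 3 genes are neighbours among expressed genes only.

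The homeobox, the 180 bases that encode the DNA-binding homeodomain, is shown for LBX1 and for its only paralog of the ladybird type, LBX2, because both are described below. It lies at chr10:101227564-101227743 in LBX1 and at chr2:74498092-74498271 in LBX2, both on the minus strand of GRCh38, and each is given 5′ to 3′ along the coding strand with the bases that differ in capitals.
LBX1: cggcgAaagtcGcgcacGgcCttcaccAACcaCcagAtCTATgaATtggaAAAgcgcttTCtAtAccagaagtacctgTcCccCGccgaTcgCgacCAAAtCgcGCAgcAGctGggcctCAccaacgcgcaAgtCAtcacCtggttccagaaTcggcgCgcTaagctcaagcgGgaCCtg
LBX2: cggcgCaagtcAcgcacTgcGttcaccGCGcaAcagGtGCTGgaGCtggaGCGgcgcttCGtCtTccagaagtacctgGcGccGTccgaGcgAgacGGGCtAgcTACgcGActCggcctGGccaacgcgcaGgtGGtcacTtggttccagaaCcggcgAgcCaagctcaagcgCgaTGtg
The pair differ at 51 of the 180 bases, which is 71.7% base identity, and the encoded stretch covers residues 125 to 184 of LBX1 and 85 to 144 of LBX2.

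The promoter of KAZALD1 is shown because KAZALD1 is by far the most abundant of the 3 genes. It is the RefSeq window of GRCh38.p14, chr10:101061739-101062038 on the plus strand. RefSeq places the gene start 148 bases inside the GENCODE start. Capitals mark a CCAAT box on the other strand (read here as ATTGG) and a GC box (GGGCGG).
KAZALD1 promoter: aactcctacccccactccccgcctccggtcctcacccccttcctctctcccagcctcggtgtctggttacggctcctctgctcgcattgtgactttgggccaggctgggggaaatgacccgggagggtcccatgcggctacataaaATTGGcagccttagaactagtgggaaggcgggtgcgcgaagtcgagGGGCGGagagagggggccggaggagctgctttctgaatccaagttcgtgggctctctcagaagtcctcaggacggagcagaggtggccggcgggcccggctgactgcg
The window is 64.0% G and C and holds 19 CpG dinucleotides, more than 57.1% of the 35116 promoter windows of the same length. With both strands searched, GGGCGG occurs in 45.0% of those windows and CCAAT in 34.6%. No TATAAA, found in 11.5% of windows, and no CACGTG, found in 7.3%, occurs in it. These matches describe letters only.

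The libraries held 7349744 to 13200051 counted reads. DMSO replicate 2 and 96 h replicate 2 stood apart from the other 8 libraries on the second principal component, at -26.2 and -28.7 against -1.20 to 15.7. In DMSO the difference between replicates moved with the GC content of the genes (Spearman 0.573 over the tested genes). At 12, 24, 48 and 96 h the values were -0.057, -0.166, -0.293 and 0.288. The 48 h group thus moved about as far as the 96 h group, with the opposite sign. LBX1, LBX1-AS1 and KAZALD1 have exons of 62.8%, 57.8% and 60.7% GC, so their values are also given without DMSO replicate 2 and 96 h replicate 2. The 48 h libraries stay in those values. Levels are given in CPM, the reads of a gene per fixed number of reads in its library. The 6 markers listed for the synovial sarcoma line summed to 900.2 to 1035 CPM with none at 0, while the 4 leukocyte and the 4 endothelial markers each summed to 0.233 CPM or less in every library. BRD9 mRNA was 88.2 to 96.3 CPM in the 8 WA-68 libraries and 100.1 to 108 CPM in the 2 DMSO libraries, and it passed the test at no time, with edgeR adjusted p between 0.0935 and 0.502. WA-68 acts on the protein, so this transcript is no check of the treatment.

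LBX1 was scarce in DMSO cells and scarcer under WA-68. Its counts in replicates 1 and 2 were 91 and 49 in DMSO, 24 and 26 after 12 h, 23 and 35 after 24 h, 31 and 18 after 48 h, and 19 and 14 after 96 h. Scaled to library size these are 7.07 and 5.79 CPM in DMSO, 2.68 and 2.99 after 12 h, 2.89 and 3.42 after 24 h, 3.58 and 2.22 after 48 h, and 1.78 and 1.96 CPM after 96 h. In these bulk samples fewer expressing cells and less RNA per cell cannot be told apart. Every WA-68 library lay below both DMSO libraries, and both 96 h libraries lay below all 6 earlier ones. The share of all tested genes that separate in this way is not given here, and LBX1 was chosen by its lower counts under WA-68. Nothing is read from the separation. The log2 fold change over DMSO was -1.20 (SE 0.261) at 12 h, -1.03 (SE 0.254) at 24 h, -1.15 (SE 0.263) at 48 h and -1.80 (SE 0.285) at 96 h. On the linear scale the level was 2.29, 2.04, 2.23 and 3.49 times lower at 12, 24, 48 and 96 h than in DMSO. Without DMSO replicate 2 and 96 h replicate 2 the log2 values were -1.32, -1.15, -1.27 and -1.98.

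LBX1-AS1, the non-coding transcript, was also scarce and also lower under WA-68. Its counts were 116 and 67 in DMSO, 21 and 29 after 12 h, 24 and 33 after 24 h, 28 and 34 after 48 h, and 31 and 27 after 96 h. That is 9.02 and 7.92 CPM in DMSO, 2.35 and 3.33 after 12 h, 3.01 and 3.23 after 24 h, 3.24 and 4.19 after 48 h, and 2.90 and 3.79 CPM after 96 h. All 8 WA-68 libraries lay below both DMSO libraries, from which nothing is read, as for LBX1. The lowest group mean was already reached at 12 h. The log2 fold change over DMSO was -1.59 (SE 0.246) at 12 h, -1.44 (SE 0.240) at 24 h, -1.20 (SE 0.236) at 48 h and -1.38 (SE 0.239) at 96 h. The linear ratio was 3.0, 2.72, 2.30 and 2.60 times lower at 12, 24, 48 and 96 h. Without the pair of libraries that stood apart the log2 values were -1.67, -1.52, -1.28 and -1.63.

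KAZALD1, whose product is secreted into the matrix, was expressed far more strongly, with 1228 to 3816 reads per library. It had 297 and 342 CPM in DMSO, 202 and 196 after 12 h, 196 and 193 after 24 h, 195 and 169.6 after 48 h, and 159.7 and 172 CPM after 96 h. The 8 WA-68 libraries did not overlap the DMSO libraries, from which nothing is read, as for LBX1. Group means were 319 ± 32.2 CPM in DMSO, 199 ± 4.11 at 12 h, 195 ± 2.36 at 24 h, 182 ± 17.8 at 48 h and 166 ± 8.96 at 96 h (SD, n = 2 each). The log2 fold change over DMSO was -0.68 (SE 0.0953), -0.71 (SE 0.0954), -0.81 (SE 0.0958) and -0.94 (SE 0.0961) at 12, 24, 48 and 96 h. This is 1.60, 1.64, 1.75 and 1.92 times lower than in DMSO, a smaller change than that of either LBX1 transcript at each time. Without the pair of libraries that stood apart the log2 values were -0.58, -0.61, -0.70 and -0.89.

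**Figure D1:**
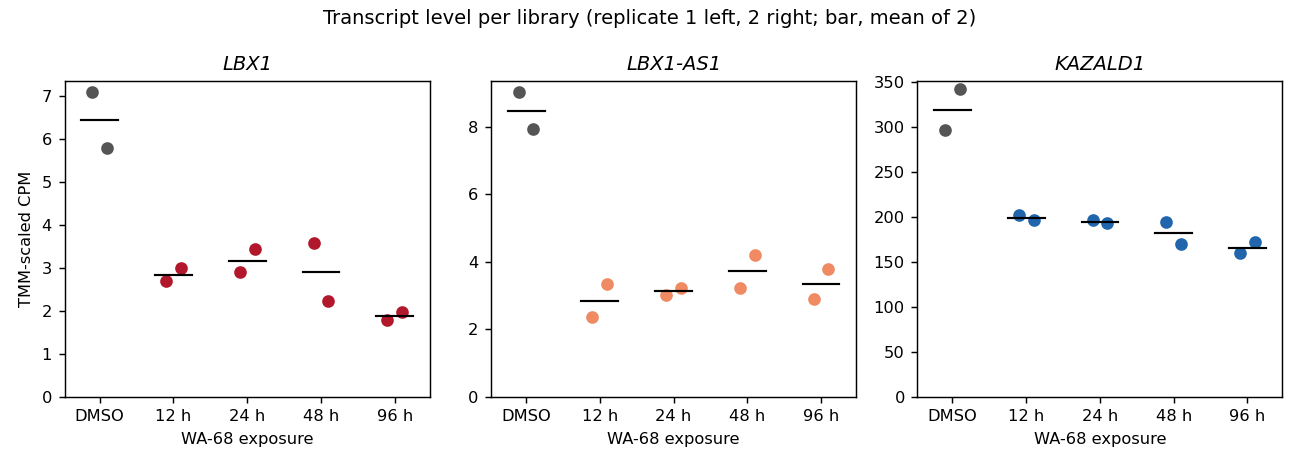
Level of LBX1, LBX1-AS1 and KAZALD1 in each library, as TMM-scaled CPM on a linear axis from 0, with DMSO and the 4 WA-68 times from left to right. Points are single libraries, replicate 1 left and replicate 2 right, and bars are means of 2. In each panel all 8 WA-68 points lie below both DMSO points, the direction by which the genes were chosen.

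Per kilobase of exon, KAZALD1 had a mean of 88.4 CPM per kb in DMSO against 2.22 for LBX1 and 2.46 for LBX1-AS1, and at 96 h the values were 45.9, 0.645 and 0.970 CPM per kb. The order KAZALD1 highest held in all 5 groups. LBX1 and LBX1-AS1 changed places with time, LBX1 being the higher per kb at 12 h (0.978 against 0.824) and at 24 h (1.09 against 0.905) and the lower in DMSO, at 48 h (1.00 against 1.08) and at 96 h. The libraries of this pair overlapped in DMSO, at 12 h and at 48 h, and did not at 24 h and 96 h. The difference within the pair was not tested.

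Counted by edgeR's quasi-likelihood test at a Benjamini-Hochberg adjusted p under 0.05, 3 of 3 genes were called lower than DMSO at each time. Over all 16382 tested genes, 1.92% were called lower at 12 h, 2.25% at 24 h, 5.38% at 48 h and 6.86% at 96 h, and 1.23%, 1.34%, 4.01% and 6.14% were called higher. Since these contrasts chose the genes, nothing is read from the count. Ranked from the most negative log2 fold change of the 16382 tested genes, LBX1 stood at 56, 90, 67 and 26 at 12, 24, 48 and 96 h. LBX1-AS1 stood at 21, 24, 54 and 64, and KAZALD1 at 370, 295, 217 and 226. The 4 contrasts share the same DMSO libraries. The median log2 fold change of all tested genes lay between -0.0083 and -9e-04. The TMM scaling assumes that most genes do not change, so a median near 0 follows from it and is no check of it.

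**Figure D2:**
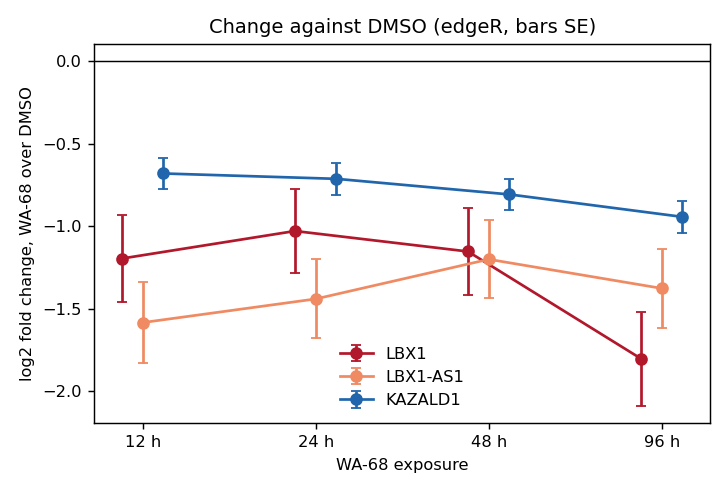
log2 fold change of each WA-68 time over DMSO for LBX1, LBX1-AS1 and KAZALD1, with bars of 1 standard error from the edgeR fit over all 10 libraries. KAZALD1 goes from -0.68 at 12 h to -0.94 at 96 h, LBX1 is lowest at 96 h (-1.80) and LBX1-AS1 at 12 h (-1.59).

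The values of the scarce pair of transcripts rested on few reads. With 1 library left out at a time, the log2 fold change of LBX1 over DMSO ranged from -1.32 to -1.03 at 12 h, -1.16 to -0.86 at 24 h, -1.55 to -0.85 at 48 h and -1.92 to -1.64 at 96 h. That of LBX1-AS1 ranged from -1.85 to -1.35, -1.52 to -1.34, -1.38 to -1.02 and -1.55 to -1.16 at the same times. For KAZALD1 the ranges were -0.78 to -0.58, -0.82 to -0.61, -0.91 to -0.70 and -1.05 to -0.84. LBX1 was no longer called in some of these fits at 12, 24 and 48 h, nor was LBX1-AS1 in 1 at 48 h. These are refits of the contrasts that chose the genes, and nothing is read from which calls were kept.

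The times under WA-68 were also compared with each other, a contrast that holds no DMSO library, although the scaling and the spread came from the fit over all 10 libraries. None of the 3 genes was called by edgeR at 24 h against 12 h, where 0% of all tested genes were called, at 48 h against 24 h (0.757% called), at 96 h against 48 h (0.0366%) or at 96 h against 12 h (4.13%). LBX1 had 1.87 ± 0.131 CPM at 96 h and 2.84 ± 0.215 CPM at 12 h (SD, n = 2 each), a log2 fold change of -0.61 (SE 0.340) with an edgeR adjusted p of 0.359. Against 48 h (2.90 ± 0.963 CPM) the LBX1 value at 96 h was -0.65 (SE 0.341, edgeR adjusted p 0.576). In both of these pairs the LBX1 libraries of the 2 groups did not overlap. The share of all tested genes without such overlap is not given here, so nothing is read from this. For KAZALD1, 96 h against 12 h gave -0.26 (SE 0.0966), with an unadjusted p of 0.0120 and an edgeR adjusted p of 0.135, and it was the only one of the 12 time comparisons of the 3 genes with an unadjusted p under 0.05. limma-voom called none of the 12, and neither did DESeq2 where it gave an adjusted p. Without the pair of libraries that stood apart this KAZALD1 value was -0.31 and passed the test (edgeR adjusted p 0.0286), and with a GC correction, added after seeing the data, it was -0.32 (0.00300). LBX1-AS1 had log2 fold changes of 0.14 at 24 h against 12 h, 0.24 at 48 h against 24 h, -0.18 at 96 h against 48 h and 0.21 at 96 h against 12 h, with edgeR adjusted p between 0.765 and 0.999.

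The reads of LBX1 and LBX1-AS1 were also set against each other within a library, which needs no scaling between libraries. LBX1 took 44.0% and 42.2% of the reads of the pair in the DMSO libraries, 53.3% and 47.3% after 12 h, 48.9% and 51.5% after 24 h, 52.5% and 34.6% after 48 h, and 38.0% and 34.1% after 96 h. Summed over replicates the share was 45.6% of 417 reads in all WA-68 libraries (exact 95% interval 40.7 to 50.5%) and 43.3% of 323 reads in DMSO (37.9 to 48.9%). At 96 h it was 36.3% of 91 reads (26.4 to 47.01%) and at 12 h 50% of 100 reads (39.8 to 60.2%). Both libraries at 12 h and both at 24 h lay above both DMSO libraries, those at 48 h lay on either side, and both at 96 h lay below. The interval of each summed share overlaps that of DMSO, but the difference in share was not tested. The intervals cover counting error only.

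**Figure D3:**
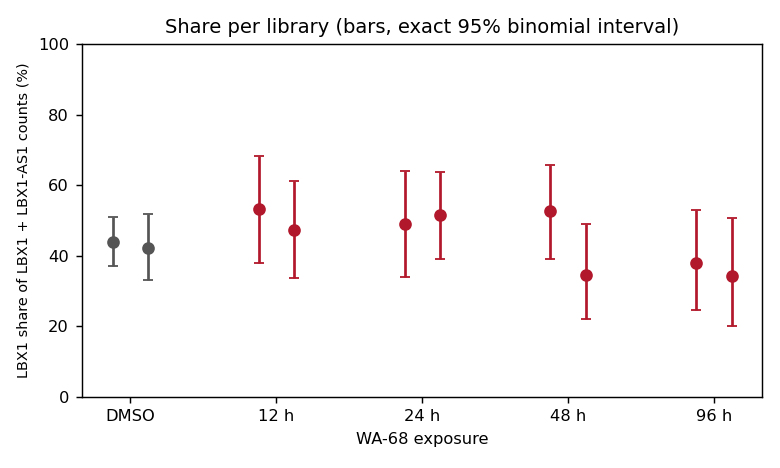
Share of LBX1 in the summed reads of LBX1 and LBX1-AS1 in each library, in percent, with exact 95% binomial intervals; DMSO and then the 4 WA-68 times from left to right. The library values run from 34.1 to 53.3% and the intervals of all 10 libraries overlap.

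Around LBX1, 64 other identifiers of the table lie within 1 Mb and 36 of them passed the filter on low counts. Of these 36, 6 (16.7%) were called by edgeR at 12 h, 7 (19.4%) at 24 h, 6 (16.7%) at 48 h and 8 (22.2%) at 96 h, against 3.15%, 3.6%, 9.39% and 13% of all tested genes. All 6 calls at 12 h and all 7 at 24 h were lower. SCD, PAX2, TWNK, FGF8, PPRC1 and NOLC1 were called at both of these times, against the same DMSO libraries. At 48 h 5 of 6 were lower, and at 96 h 4 were lower and 4 higher. Of all tested genes 1.92%, 2.25%, 5.38% and 6.86% were called lower at 12, 24, 48 and 96 h. Higher calls made up 1.23%, 1.34%, 4.01% and 6.14%. The median log2 fold change of the 36 was -0.10, -0.01, -0.01 and -0.03 at 12, 24, 48 and 96 h, against -0.0021, -9e-04, -0.007 and -0.0083 for all tested genes. Leaving out 1 library at a time moved these counts to 3 to 8 at 12 h, 2 to 8 at 24 h, 2 to 9 at 48 h and 6 to 10 at 96 h; the lowest followed from leaving out either 12 h library (3), 24 h replicate 1 (2, and 3 without replicate 2) and 48 h replicate 2 (2). This stretch of chromosome was picked with an earlier test of neighbours on the same libraries known, and the counts are no independent evidence of clustering. The calls over all tested genes in the fits with 1 library left out are not given here.

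Immediately upstream of KAZALD1 and read in the opposite direction, the unnamed long non-coding gene ENSG00000273162 (chr10:101060029-101061005, minus strand) starts 0.8 kb from the GENCODE start of KAZALD1. It had 15.3 and 14.2 CPM in DMSO, 9.73 and 11.1 after 12 h, 7.66 and 10.4 after 24 h, 8.78 and 8.76 after 48 h and 10.8 and 10.8 CPM after 96 h. It was lower in all 8 WA-68 libraries. How many of all tested genes were so is not given here, and nothing is read from it. ENSG00000273162 passed the test at 24 h (log2 fold change -0.70, edgeR adjusted p 0.0183) and 48 h (-0.75, 0.00597) but not at 12 h (-0.51, 0.101) or 96 h (-0.46, 0.0658). The 24 h call was lost without DMSO replicate 1 or 24 h replicate 1 (-0.51), and the 48 h call without either 48 h library (-0.74 without replicate 2). The next protein-coding gene on that side, SFXN3, which encodes a mitochondrial serine transporter, went the other way, with 285 and 311 CPM after 96 h against 221 and 253 CPM in DMSO (log2 fold change 0.33, edgeR adjusted p 0.0172). This call was lost without DMSO replicate 1 (0.23) or 96 h replicate 2 (0.27), and SFXN3 and PDZD7 overlap at their starts on opposite strands. PDZD7 and LZTS2, beyond SFXN3, passed the test at no time. On the other side the nearest tested genes BTRC, an F-box protein of a ubiquitin ligase, DPCD and POLL, a DNA polymerase, passed at no time either, and BTRC had log2 fold changes of 0.08 to 0.24. Inside the span of LBX1-AS1, LINC02681 had 62 reads over all libraries and was not tested.

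Farther out, the mitochondrial DNA helicase TWNK fell at all 4 times, with log2 fold changes of -0.62, -0.69, -0.75 and -0.72 (SE 0.0957 to 0.0962, edgeR adjusted p 0.000407 or less). Its libraries had 146 to 168 CPM under WA-68 and 241 and 276 CPM in DMSO, and its first bases overlap the start of MRPL43 on the other strand. PAX2, a paired-box transcription factor of kidney and neural tube, fell at 12 h (-0.63, edgeR adjusted p 0.00336), 24 h (-0.62, 0.00347) and 96 h (-0.65, 0.000618) and had -0.36 at 48 h (0.0553). FGF8, a secreted growth factor of limb and brain patterning, fell at 12 h (-0.78, 0.0174) and 24 h (-0.67, 0.0377) and had -0.50 and -0.52 at 48 and 96 h. It is also scarce, with 5.93 to 7.74 CPM under WA-68 against 10.5 and 10.2 CPM in DMSO. SCD, the fatty acid desaturase, fell at 12 h (-0.84), 24 h (-0.45) and 96 h (-0.91), with edgeR adjusted p of 0.00715 or less, but had -0.13 at 48 h, where its edgeR adjusted p was 0.439. SCD was also the one gene of the 36 called lower between 96 h and 48 h, with means of 1204 CPM at 96 h and 2071 CPM at 48 h (log2 fold change -0.78, edgeR adjusted p 0.000316). At the far right edge, NOLC1, a nucleolar chaperone of ribosome assembly, fell at all 4 times (-0.52, -0.52, -0.57 and -0.51, edgeR adjusted p 0.00125 or less), and its neighbour PPRC1, a coactivator of mitochondrial biogenesis, fell at 12, 24 and 48 h (-0.48, -0.50 and -0.48). NPM3, a nucleoplasmin, fell at 48 h alone (-0.41). OLMALINC, a non-coding RNA, rose at 48 h (0.39), and SEC31B, FBXW4 and OGA, the enzyme that removes O-linked N-acetylglucosamine, rose at 96 h (0.50, 0.39 and 0.30). With each library left out in turn, calls were kept throughout for TWNK at all 4 times, SCD at 12 and 96 h, PAX2 at 96 h and NOLC1 at 24, 48 and 96 h. The other calls named in this window were lost in at least 1 such fit, and those of FBXW4 and OGA at 96 h and FGF8 at 24 h in most of them. The values that moved by more than 1.5 times were FBXW4 (0.15) and SEC31B (0.28) without DMSO replicate 1 and OGA without 96 h replicate 1 (0.20). The remaining lost calls moved less. Their smallest values were -0.59 for PAX2 at 12 h without 12 h replicate 1 and -0.62 at 24 h without 24 h replicate 2, -0.76 for FGF8 at 12 h without 12 h replicate 1 and -0.63 at 24 h without 24 h replicate 2, and -0.44 for SCD at 24 h without 24 h replicate 1. NOLC1 stood at -0.48 at 12 h without 12 h replicate 2, PPRC1 at -0.37 at 12 h without DMSO replicate 2 and at -0.45 and -0.47 at 24 and 48 h without replicate 2 of that time, and NPM3 at -0.32 and OLMALINC at 0.40 without 48 h replicate 2.

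**Figure D4:**
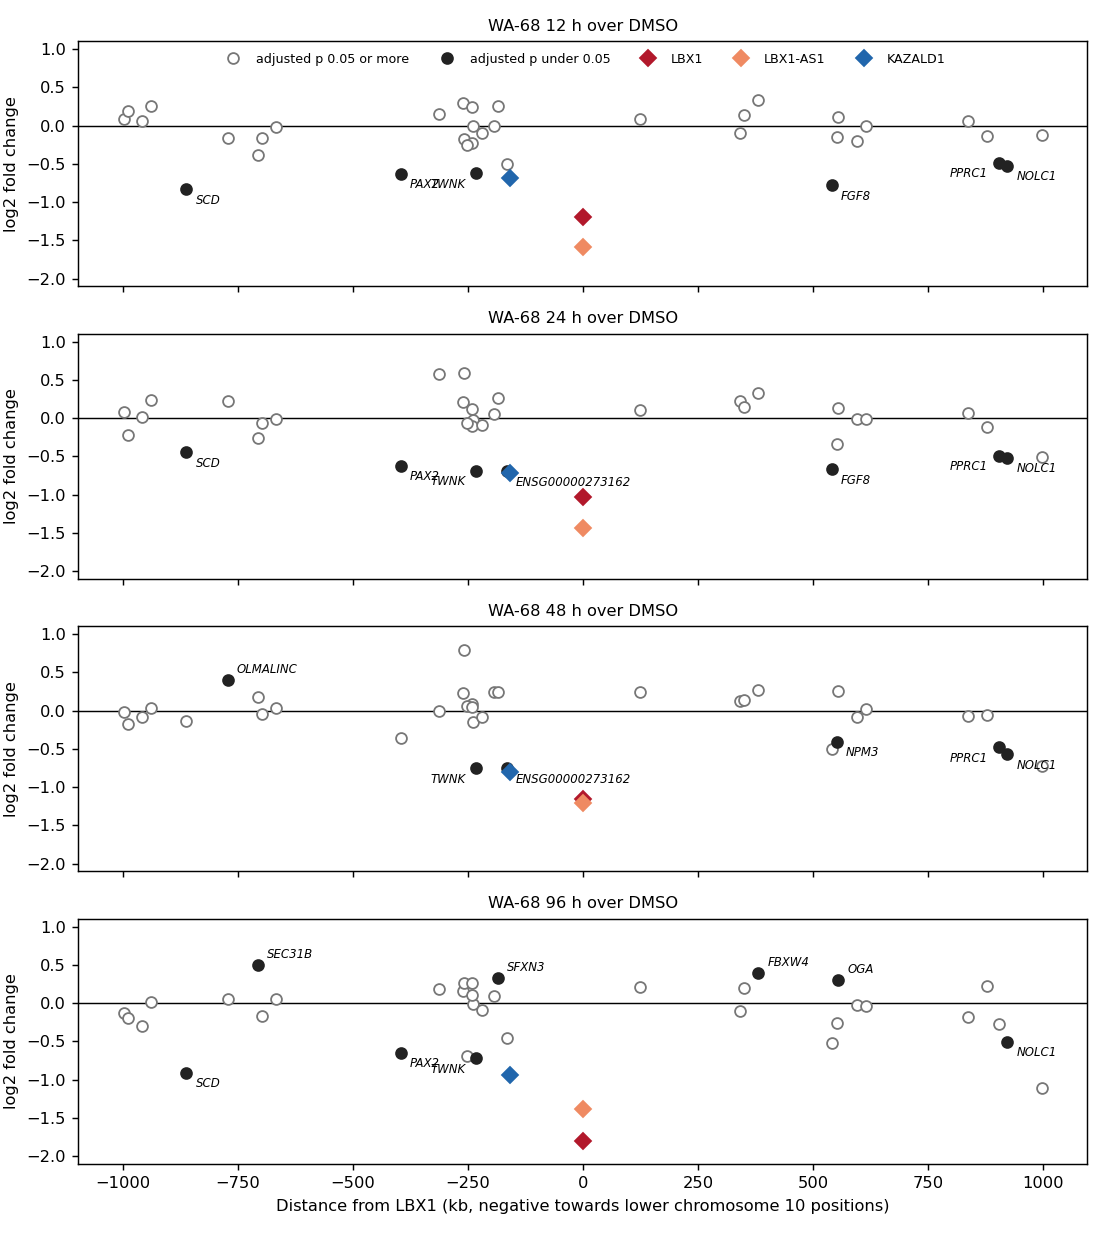
log2 fold change over DMSO of the 36 tested genes within 1 Mb of LBX1 (circles, filled where the edgeR adjusted p is under 0.05) and of LBX1, LBX1-AS1 and KAZALD1 (diamonds), by distance from LBX1 in kb; one panel per WA-68 time. LBX1 and LBX1-AS1 lie below every circle at each time, called genes lie between uncalled ones, and the 4 called higher at 96 h are SEC31B, SFXN3, FBXW4 and OGA.

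Genes that act with LBX1 in migrating muscle precursors were taken from a list of 22, of which 14 passed the filter. At 12, 24, 48 and 96 h, 0, 1, 1 and 2 were called higher and 2, 2, 1 and 2 lower. In either direction that is 14.3%, 21.4%, 14.3% and 28.6% of the 14, against 3.15%, 3.6%, 9.39% and 13% of all tested genes. Median log2 fold changes were -0.10, -0.08, -0.02 and -0.0017. The muscle factors MYF5, MYF6, MYOD1 and MYOG of the list had 0 reads in all libraries. The 4 skeletal muscle markers, 1 of them tested, summed to 1.47 to 3.33 CPM per library. The list is thus named for embryos, and no muscle identity of these cells is meant. MEOX1, a homeobox factor of the somite, fell to 7.60 and 8.502 CPM after 12 h, against 14.1 and 16.2 CPM in DMSO (log2 fold change -0.90, edgeR adjusted p 0.00379). It also fell at 24 h (-0.79) and 96 h (-0.53) but had -0.20 at 48 h. MET, the receptor that starts the migration in mouse, rose at 24, 48 and 96 h (0.86, 0.80 and 0.76, edgeR adjusted p 0.0353 to 0.0406), on 71 reads in the 2 DMSO libraries together. CXCL12, the chemokine that guides the cells, rose at 96 h, with 309 and 310.1 CPM against 197 and 208 CPM in DMSO (0.61, edgeR adjusted p 4.12e-05). PAX3, which acts upstream of Lbx1 in mouse, had log2 fold changes of -0.06 to 0.10 and was called at no time. The CXCL12 call was kept with any 1 library left out, while those of MEOX1 and MET were each lost in at least 1 such fit at every time they were called. The MET call at 24 h was lost in most of these fits. The smallest values of these fits were -0.82 for MEOX1 at 12 h without 12 h replicate 1, -0.59 at 24 h without 24 h replicate 2 and -0.44 at 96 h without DMSO replicate 2. For MET they were 0.74 at 24 h and 0.65 at 96 h without replicate 1 of that time and 0.65 at 48 h without 48 h replicate 2.

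For the dorsal neural tube, 9 of 26 listed genes passed the filter. At 12, 24, 48 and 96 h, 0, 1, 0 and 0 were called higher and 2, 1, 0 and 2 lower. These are 22.2%, 22.2%, 0% and 22.2% of the 9, where all tested genes gave 3.15%, 3.6%, 9.39% and 13%. The median log2 fold changes were -0.17, -0.05, 0.06 and -0.03. PAX2, already described as a neighbour, is one of them and was called lower at 12, 24 and 96 h. The other lower calls were GAD1 at 12 h (-0.39, edgeR adjusted p 0.0406) and LHX1 at 96 h (-0.69, 0.00108). GAD1 makes the inhibitory transmitter GABA and LHX1 is a LIM homeobox factor. With any 1 library left out, PAX2 and LHX1 at 96 h were kept, while GAD1 at 12 h was lost in 7 of the 10 fits (-0.30 without DMSO replicate 1). PAX2 was lost at 12 h without 12 h replicate 1 (-0.59) and at 24 h without either 24 h library (-0.62 without replicate 2). No gene of the list was called at 48 h by edgeR or DESeq2, where 2 had an edgeR unadjusted p under 0.05. How many of all tested genes did so is not given here, and nothing is read from the 2. TLX3, a homeobox factor of excitatory dorsal neurons that opposes Lbx1 in mouse, rose at 24 h (0.92, edgeR adjusted p 0.0389), which was lost without either DMSO library (0.78 without replicate 1) or either 24 h library, and had 0.60 to 0.62 at the other times. The 4 neuron markers, 2 of them tested, summed to 88.8 to 95.7 CPM in DMSO, 66.6 to 71.3 at 12 h and 78.9 to 84.0 at 24 h. At 48 h the sum was 99.1 to 105 CPM and at 96 h 96.0 to 115 CPM. Nearly all of it was RBFOX3, with 7595 reads over all libraries, against 608 for SNAP25, 2 for STMN2 and 0 for SYT1. The part of these markers in the list counts was not tested.

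Among NK-like homeobox factors, the class that holds LBX1, 15 of 35 passed the filter. At 12, 24, 48 and 96 h, 0, 1, 1 and 2 were called higher and 0, 1, 2 and 4 lower, or 0%, 13.3%, 20% and 40% of the 15 in all. Among all tested genes the shares were 3.15%, 3.6%, 9.39% and 13%. The gene called higher at 24 h is TLX3, already counted and described for the dorsal neural tube, so that call is shared by both lists. At 12 h, where edgeR and DESeq2 called none, 4 had an edgeR unadjusted p under 0.05. The share of all tested genes under that unadjusted cutoff is not given here, so nothing is read from the 4. The median log2 fold changes were -0.17, -0.01, -0.28 and -0.27. The paralog LBX2 was higher at 96 h, where LBX1 was lowest. It had 3.46 and 4.35 CPM after 96 h, against 1.87 and 1.30 CPM in DMSO (log2 fold change 1.23, SE 0.330, edgeR adjusted p 0.0137), and it had 0.54, 0.82 and 0.51 at 12, 24 and 48 h, without passing the test. These values rest on 35 reads in DMSO and 68 at 96 h, and the call was lost without DMSO replicate 2 (1.04) or 96 h replicate 2 (1.08). BARX1, a factor of jaw and stomach mesenchyme, fell at 24, 48 and 96 h (-0.44, -0.46 and -0.45). HLX, a factor of gut mesenchyme, fell at 96 h (-0.40, edgeR adjusted p 0.0155), and NKX1-2 rose at 48 h (0.64) and 96 h (0.57), each of these calls being lost in at least 1 fit with a library left out. The smallest values were -0.42 for BARX1 at 24 h without 24 h replicate 2, -0.38 at 48 h without 48 h replicate 1 and -0.40 at 96 h without 96 h replicate 2, -0.26 for HLX without DMSO replicate 2, and 0.59 and 0.44 for NKX1-2 at 48 h without DMSO replicate 1 and at 96 h without 96 h replicate 1.

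On the IGF axis, where KAZALD1 belongs by its binding domain, 14 of 28 listed genes passed the filter. At 12, 24, 48 and 96 h, 2, 1, 0 and 3 were called higher and 1, 1, 3 and 3 lower. Together they make 21.4%, 14.3%, 21.4% and 42.9% of the 14, beside 3.15%, 3.6%, 9.39% and 13% of all tested genes. Median log2 fold changes were 0.03, -0.17, -0.06 and 0.10. The ligand IGF2 fell at all 4 times (-0.47, -0.48, -0.41 and -0.37, edgeR adjusted p 0.00707 to 0.0138). Its libraries had 706 to 849 CPM under WA-68 and 895 and 1121 CPM in DMSO. The higher of these is DMSO replicate 2, without which IGF2 was not called at any time and had log2 fold changes of -0.30, -0.31, -0.24 and -0.21. IGF2 calls were also lost without either library of that time at 12 h (-0.47) and 24 h (-0.48). The same held without replicate 2 at 48 h (-0.31) and without replicate 1 at 96 h (-0.24). The receptor IGF1R fell at 48 h (-0.42) and 96 h (-0.34), and STC2, an inhibitor of the protease that frees IGF from its binding proteins, fell at 48 h (-0.65) and 96 h (-0.87). IGF1R was not called without 48 h replicate 2 (-0.36) or 96 h replicate 1 (-0.27) at those times. The STC2 call at 48 h was lost in 4 of the 10 fits with 1 library left out (smallest value -0.57, without 48 h replicate 2). At 96 h the STC2 call was lost without 96 h replicate 2 (-0.62). The matrix protein CCN2, which carries an IGF-binding motif like KAZALD1, rose at 96 h, with 8.43 and 8.70 CPM against 3.78 and 3.96 CPM in DMSO (1.13, edgeR adjusted p 0.000838), and kept its call with any 1 library left out.

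By Pearson correlation of log2 CPM with LBX1 over the 10 libraries, the 5 genes most like it of 13869 with a mean of at least 1 CPM were DIXDC1 (0.978), SMARCC1 (0.972), DDN (0.965), NSA2 (0.962) and PALD1 (0.954). The 10 points share their 2 DMSO libraries, which lie apart from the rest. Over the 8 WA-68 libraries alone the values were 0.952, 0.937, 0.880, 0.875 and 0.850. These 8 are among the 10 libraries by which the 5 genes were picked out of 13869, so the values are no separate check. The changes of these genes differed widely in size: SMARCC1, a core BAF subunit, had log2 fold changes of -0.22 to -0.33 and was called lower at 96 h alone, while DDN, dendrin, fell at all 4 times, with -1.08 to -1.67. The 3 genes least like LBX1 were CPT1A (-0.972), PLCE1 (-0.961) and DMAP1 (-0.956). KAZALD1 ranked 30 for likeness to LBX1 at 0.927, and 0.865 over the WA-68 libraries, but 385 by Spearman correlation, at 0.745. The DMSO libraries in these correlations are the ones by which both genes were chosen. LBX1-AS1, although it starts at the same place, ranked 615 at 0.774 (1862 by Spearman, at 0.503) and stood at -0.178 over the WA-68 libraries. Among the WA-68 libraries LBX1-AS1 had 21 to 34 reads and LBX1 14 to 35, and the part of counting error in that value was not tested.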

How the data were processed

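RNA-seq counts of HS-SY-II cells were analysed as deposited: a table of read counts per Ensembl gene made by the authors, in which reads were trimmed with Trim Galore and cutadapt, aligned to GRCh38 with STAR and counted with featureCounts, per the submitters' processing notes. Neither the strand setting nor the annotation release of the counting is stated. Positions came from GENCODE v29, which gave one to 58126 of the 63140 identifiers, and promoters from RefSeq.

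Counts of all 10 libraries (5 groups of 2) were fitted in edgeR 4.0.16 (R 4.3.3) with TMM scaling and its default filter, which left 16382 genes. Quasi-likelihood F tests were adjusted by Benjamini-Hochberg over all tested genes, with calls at 0.05. They used 5 residual degrees of freedom together with 18.5 prior degrees of freedom borrowed across genes. The standard error is the log2 fold change divided by the root of F. CPM are TMM-scaled. Alternatives included RLE and library-size scaling, other filters, DESeq2 1.42.0, limma-voom (limma 3.58.1), a replicate block, leaving out libraries and a GC correction. The code was tested on simulated data. The labels call replicates biological but name no separate cultures or days, so the p-values measure the spread between these samples. Correlations of replicate differences between groups were -0.101 to 0.168, the highest being that of DMSO with 96 h. Whether same-numbered libraries were handled together is not stated in the labels, and these correlations cannot decide it.

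The members, lists and tests were chosen with earlier results of these data known. Named genes were the 3 members, every gene within 1 Mb of LBX1 called at any time and the 3 nearest tested protein-coding genes on each side, up to 4 per list with the smallest adjusted p, the 5 most and 3 least like LBX1, and BRD9. PAX3 was added after its values were seen. A gene that this rule names is not reported here, though the list counts include it.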

Additional observations from a re-analysis of the deposited data

How the results depend on the processing

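Against DMSO, none of the 249 alternative values of LBX1, LBX1-AS1 and KAZALD1 changed direction, and 9 were no longer called; these contrasts chose the genes, so nothing is read from this. DESeq2 gave no adjusted p for LBX1 at 12 and 24 h and for LBX1-AS1 at 24 h. With 1 library left out, or both libraries that stood apart, LBX1 ranged from -1.32 to -1.03 at 12 h, -1.16 to -0.86 at 24 h and -1.55 to -0.85 at 48 h, and LBX1-AS1 from -1.38 to -1.02 at 48 h. Between times the same omissions gave ranges for LBX1 at 48 h against 24 h of -0.52 to 0.18, for KAZALD1 of -0.20 to 0.0095 at 48 h against 24 h and -0.32 to -0.20 at 96 h against 12 h, and for LBX1-AS1 of -0.087 to 0.42 at 24 h against 12 h, -0.019 to 0.48 at 96 h against 12 h and -0.35 to 0.030 at 96 h against 48 h. KAZALD1 at 96 h against 12 h passed the test with the GC correction (-0.32). Where a single library is left in a group, it is assumed to vary like the others. The GC correction, chosen after seeing the data, raised the calls over all genes to 1326, 1476, 2659 and 3369 at 12, 24, 48 and 96 h, against 516, 589, 1539 and 2129 without it, and those within 1 Mb of LBX1 to 10, 11, 10 and 13. It gave 6, 4 and 5 IGF axis calls at 12, 24 and 48 h, 4 muscle precursor calls at 12 h, 1 dorsal neural tube call at 48 h and 4 NK-like calls at 24 h. DESeq2 gave 0 and 2 muscle precursor calls at 48 and 96 h, 1 and 1 dorsal neural tube calls at 12 and 24 h and 0, 1 and 2 NK-like calls at 24, 48 and 96 h. Muscle precursor calls at 48 h were 1 with RLE, library-size scaling, no filter or the replicate block. Library-size scaling gave 1 dorsal neural tube call at 12 h and 1 NK-like call at 24 h, and turned GAD1 at 96 h (0.024) and LHX1 at 24 h (0.0085). The replicate block gave 1 IGF axis call at 24 h, changed no call of the 3 genes and 1 of 112 other named values. Whether same-numbered libraries belong together is not stated in the labels. With 1 library left out, calls at 12, 24 and 48 h ranged from 3 to 8, 2 to 8 and 2 to 9 within 1 Mb of LBX1. At 12, 24, 48 and 96 h they ranged from 0 to 3, 0 to 4, 0 to 4 and 3 to 6 on the IGF axis, 0 to 2, 0 to 3, 0 to 2 and 1 to 4 for muscle precursors, and 0 to 1, 0 to 2, 0 to 4 and 2 to 6 for NK-like factors. Dorsal neural tube calls ranged from 0 to 2, 0 to 2 and 0 to 1 at 12, 24 and 48 h. Uncalled values that turned were GAD1 at 96 h (-0.17 to 0.093), HLX (-0.24 to 0.047), LHX1 (-0.13 to 0.024) and NKX1-2 (-0.068 to 0.13) at 24 h, OLMALINC at 96 h (-0.021 to 0.12) and SEC31B at 48 h (-0.047 to 0.38). The causes were not tested. Calls over all genes are given here only for the main fit and the GC correction. Counts under other settings therefore have no such share beside them, and nothing is read from them. LBX1 and LBX1-AS1 had 14 to 116 reads per library, which limits their precision.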
